A study of Mus musculus with 778 samples.

Results

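The *Obox* genes were examined in single mouse oocytes as the rows *Obox1*, *Obox2*, *Obox3*, *Obox5* and *Obox6* of the deposited count table, and all 5 were found among its 23201 genes. The table held 1 further row of the family, *Obox7*, which is described beside them. Oocytes of wild-type ICR mice had been picked by hand into 5 stages by diameter, and their RNA counted by single-cell RNA-seq with unique molecular identifiers (UMIs), random tags by which each cDNA molecule is counted once. Non-growing oocytes (NGO, 46 cells) were under 20 μm wide and came from mice 3 to 4 days old. Growing oocytes of 30 to 45 μm (GO1, 51 cells), 50 to 55 μm (GO2, 26 cells) and 60 to 65 μm (GO3, 44 cells) and fully-grown oocytes over 70 μm (FGO, 56 cells) came from mice 3 to 4 weeks old. Growth stage and mouse age therefore cannot be told apart in any comparison with NGO. The cells came from 4 libraries and their column names do not give the library, so each stage was 1 pooled sample, no test between stages was possible, and the intervals given below cover counting error only.

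Obox stands for oocyte-specific homeobox. The genes encode homeodomain proteins, transcription factors that bind DNA through a conserved helix-turn-helix fold, and in the mouse they lie in 1 cluster of many near-identical copies. *Obox1*, *Obox2*, *Obox5* and *Obox7* are known as maternal members, whose mRNA is stored in the oocyte, and *Obox3* as a member that the embryo itself transcribes. Maternal and embryonic OBOX proteins are known to act redundantly when the embryonic genome is first switched on. *Obox6* is a more distant member, and mice that lack it are known to be fertile.

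In the NCBIM37 build, to which mm9 corresponds, the 6 genes spanned 1179971 bases of chromosome 7. *Obox7* (chr7:15245057-15251344), *Obox2* (chr7:15939386-15983894), *Obox1* (chr7:16097689-16142215) and *Obox5* (chr7:16335483-16345149) lay on the plus strand. *Obox3* (chr7:16065174-16225251) and *Obox6* (chr7:16418595-16425027) lay on the minus strand. The annotated *Obox3* gene contained the whole of *Obox1* on the other strand, an overlap of 44527 bases, and whether the counting used strand is not given in the sources used here. RefSeq lists 47 *Obox* pseudogenes besides.

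The copies are close enough to share reads. The longest transcripts of *Obox1* and *Obox2* were 99.2% identical over 1459 aligned bases, and 81.3% of the 50-base stretches in the last 300 bases of each occurred in another *Obox* transcript. Over the whole transcript, 61.3% of such stretches of *Obox1* and 62.1% of those of *Obox2* were shared, nearly all with each other. The share was 15.2% for *Obox7*, 9.99% for *Obox5*, 1.55% for *Obox3* and 0 for *Obox6*. By these shares the counts of *Obox1* and *Obox2* are uncertain as single genes, and those of *Obox5* and *Obox7* less so. Only protein-coding transcripts of the 6 genes were compared. Reads shared with the pseudogenes are not covered for any row. The sum over all 6 rows is given beside the single genes.

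RefSeq promoter windows (GRCm38.p6, 300 bases around the annotated start, each given 5′ to 3′ on the strand of its gene) matched 5 of the 6 genes. They are shown so that the near-identical copies can be compared base by base. Capitals mark every E-box, CANNTG, the motif of the basic helix-loop-helix proteins FIGLA, SOHLH1 and SOHLH2 of the oocyte.
*Obox1*, chr7:15547007-15547306, plus strand: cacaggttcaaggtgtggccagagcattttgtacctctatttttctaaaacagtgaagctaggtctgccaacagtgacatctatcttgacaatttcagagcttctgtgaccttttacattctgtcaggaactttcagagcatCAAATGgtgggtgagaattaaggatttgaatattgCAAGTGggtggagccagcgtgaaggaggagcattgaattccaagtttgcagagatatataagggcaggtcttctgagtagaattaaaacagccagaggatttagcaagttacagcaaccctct
*Obox2*, chr7:15388601-15388900, plus strand: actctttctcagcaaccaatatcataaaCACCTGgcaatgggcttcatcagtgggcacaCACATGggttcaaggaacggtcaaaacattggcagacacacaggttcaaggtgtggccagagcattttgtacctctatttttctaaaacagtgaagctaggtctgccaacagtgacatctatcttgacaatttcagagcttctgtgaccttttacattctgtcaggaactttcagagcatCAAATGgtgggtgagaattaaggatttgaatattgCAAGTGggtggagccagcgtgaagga
*Obox5*, chr7:15750120-15750419, plus strand: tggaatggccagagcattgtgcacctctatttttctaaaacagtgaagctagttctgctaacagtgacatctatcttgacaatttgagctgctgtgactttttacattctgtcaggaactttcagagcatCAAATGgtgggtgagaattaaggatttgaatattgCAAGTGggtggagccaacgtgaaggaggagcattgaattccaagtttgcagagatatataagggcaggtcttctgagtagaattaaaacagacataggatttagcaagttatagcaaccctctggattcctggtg
*Obox7*, chr7:14659458-14659757, plus strand: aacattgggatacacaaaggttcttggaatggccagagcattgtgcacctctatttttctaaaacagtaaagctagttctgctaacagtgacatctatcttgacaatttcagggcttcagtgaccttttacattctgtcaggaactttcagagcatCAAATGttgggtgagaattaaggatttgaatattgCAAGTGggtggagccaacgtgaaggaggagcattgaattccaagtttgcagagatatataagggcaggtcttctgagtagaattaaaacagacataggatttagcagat
*Obox3*, chr7:15639728-15640027, minus strand: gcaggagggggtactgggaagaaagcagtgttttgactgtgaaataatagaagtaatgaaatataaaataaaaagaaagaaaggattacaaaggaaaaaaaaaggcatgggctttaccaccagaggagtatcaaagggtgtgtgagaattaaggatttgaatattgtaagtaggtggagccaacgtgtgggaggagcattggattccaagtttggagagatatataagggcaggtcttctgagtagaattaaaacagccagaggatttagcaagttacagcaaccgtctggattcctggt

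The windows of *Obox1*, *Obox2*, *Obox5* and *Obox7* each held the E-boxes CAAATG and CAAGTG with their first bases 35 apart, and the 4 shared an exact run of 44 bases that holds the CAAGTG. *Obox1*, *Obox3*, *Obox5* and *Obox7* shared another exact run, of 42 bases, near the annotated start. Relative to the annotated start the pair lay at -108 and -73 in *Obox1*, -120 and -85 in *Obox5*, -94 and -59 in *Obox7*, and -11 and 24 in *Obox2*, whose start is annotated farther upstream in the same sequence. *Obox2* held 2 more E-boxes, CACCTG and CACATG. The *Obox3* window held no CANNTG on either strand and was 72.8% to 81.5% identical to the others where they aligned, against 92.6% to 100% among the other 4. Of all 32851 mouse windows of this length, 72.3% held a CANNTG, so an E-box as such sets no promoter apart. CAAATG was found on either strand in 13.7%, CAAGTG in 13.6% and both in 2.04%, a breakdown made after the windows had been read. Of the homeodomain motifs searched on both strands, TAATTA (5.29% of all windows) and TAATTG (8.0%), to which NOBOX binds, were in none of the 5 windows, and TAATCC (7.06%), the motif of the OBOX proteins themselves, was in that of *Obox3* alone. CCAAT, bound by NF-Y, was in the windows of *Obox2*, *Obox3* and *Obox7* (37.4% of all), and the TATA motif TATAAA in that of *Obox3* (13.6% of all). A match is a description of the letters and does not show that a factor binds there.

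Levels are given as UMIs of a gene summed over the cells of a stage, per 1000000 UMIs of that stage (CPM). From NGO to FGO, the sums rested on 25198132, 26752883, 24976634, 49822036 and 64311908 UMIs. In GO1 the 10 deepest cells held 80.4% of the UMIs, and in GO2 73.2%, so the sums of these stages rest on few cells and the median over cells is given as well. CPM is a share of the UMIs and does not follow the RNA content of a growing oocyte.

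*Obox2*, *Obox5*, *Obox1* and *Obox7* were scarce in non-growing oocytes and abundant in the smallest growing oocytes. In fully-grown oocytes these 4 genes were lower again, though still above NGO in the sums, with cells that overlapped. From NGO to FGO, all 6 rows together had 113.1, 1650, 1829, 1248 and 898 CPM. Over single cells the family had medians of 62.3, 1598, 1756, 1246 and 803 CPM. The lowest and highest cells were at 0 and 321 CPM before growth, 566 and 5394 in GO1, 1237 and 3898 in GO2, 745 and 1751 in GO3, and 167 and 1427 in FGO. No GO1, GO2 or GO3 cell was as low as the highest NGO cell, whereas 2 of 56 FGO cells lay within the NGO range. These 2 cells also stood apart in *Sohlh1*, a gene of primordial follicle oocytes, with 166.9 and 160.6 CPM against an FGO median of 12.5 and a lowest NGO cell of 93.7, a level that 4 of 56 FGO cells reached. The FGO cell with the most *Sohlh1*, at 243 CPM, had a family level of 469 CPM, above the NGO range. Over all 56 FGO cells the Spearman correlation between the family and *Sohlh1* was -0.26 in CPM and -0.24 in thinned cells. The part of cells high in *Sohlh1* in the FGO values was not tested.

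*Obox2*, a maternal member, was at 22.5, 562, 800, 505 and 391 CPM from NGO to FGO. Its cells lay between 0 and 106.9 CPM around a median of 8.81 in NGO, and between 178 and 2269 around 667 in GO1. The median was 838 in GO2, with cells between 347 and 1795, 575 in GO3, between 221 and 872, and 340 in FGO, between 84.1 and 748. GO2 was the highest stage in the sums and under each of the 7 other ways of averaging or scaling that were tried.

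*Obox5* is the maternal member with the longest coding sequence of the 4, and the one with the most UMIs before growth. It was at 76.1, 715, 663, 476 and 310.4 CPM from NGO to FGO. Single NGO cells ranged from 0 to 176 CPM around a median of 37.2, and GO1 cells from 199.5 to 2748 around 672. In the later stages the medians were 646, 453 and 266 CPM, with GO2 cells from 397 to 1663, GO3 cells from 217 to 659 and FGO cells from 22.8 to 435. The lowest FGO cells thus overlapped the NGO range.

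*Obox1* was at 9.96, 230.9, 223, 155.1 and 131.05 CPM in the same order. Single NGO cells reached from 0 to 43.3 CPM around a median of 3.94, and GO1 cells from 44.9 to 301 around 175. The medians of the later stages were 199, 139.4 and 106.8 CPM, and their cells lay at 115.6 to 374 in GO2, 75.6 to 223 in GO3 and 24.8 to 193 in FGO. Its cells overlapped among all 4 stages of growing and fully-grown oocytes.

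*Obox7* was at 4.56, 141.9, 141.4, 111.5 and 65.5 CPM. It was without a UMI in 23 of 46 NGO cells, 5 of 51 GO1 cells and 4 of 56 FGO cells. The medians over cells were 0.734, 105.4, 124.8, 102.1 and 44.7 CPM, with highest cells at 27.2 CPM in NGO and 314 in GO1.

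**Figure D1:**
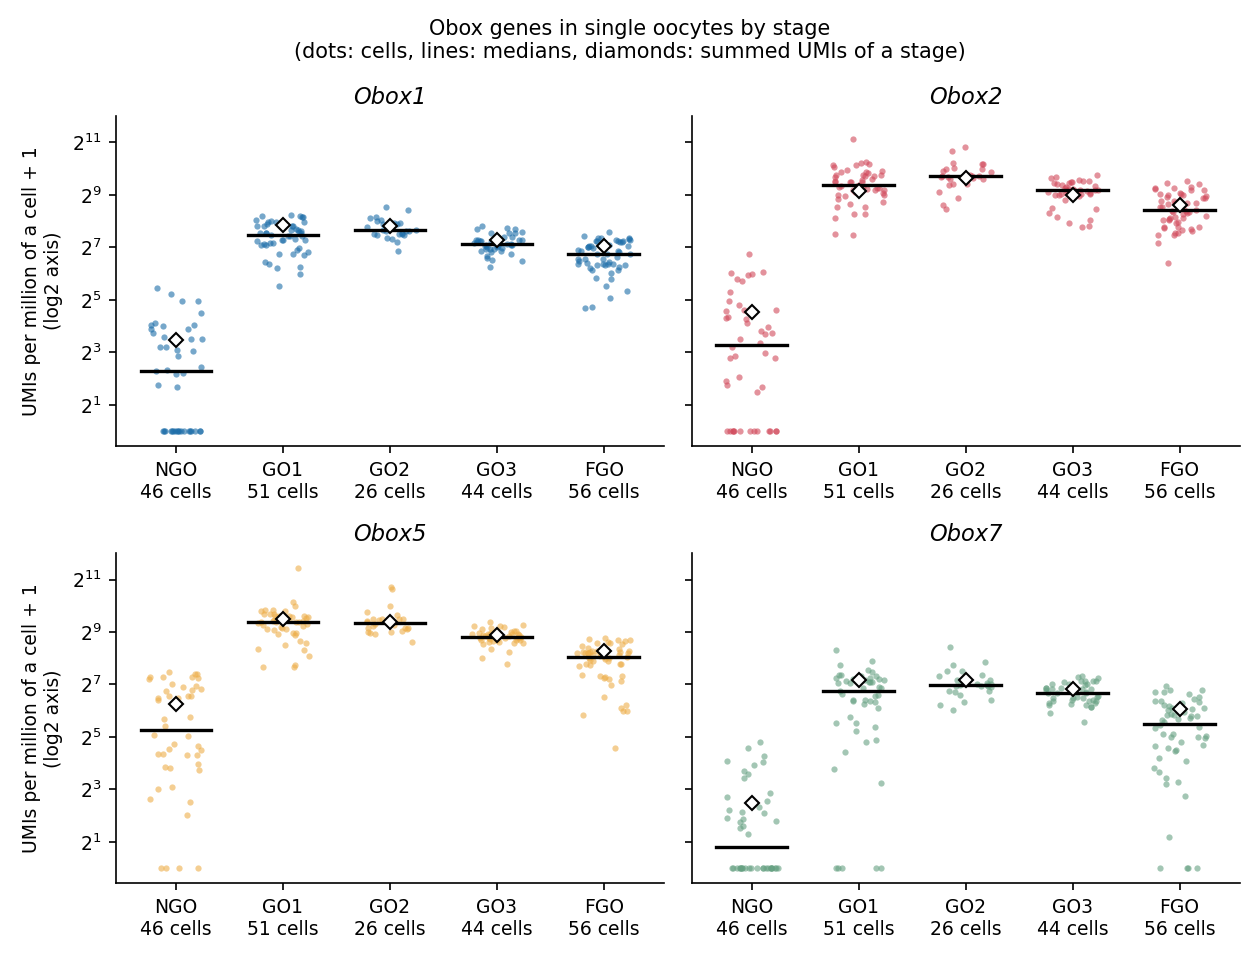
CPM + 1 of *Obox1*, *Obox2*, *Obox5* and *Obox7* in single oocytes on a log2 axis, by stage, with the number of cells under each stage. Dots are cells, lines are medians and diamonds are the levels from summed UMIs; the NGO cells lie below all GO1 cells in the panels of *Obox1*, *Obox2* and *Obox5*, and 9 of 51 GO1 cells lie within the NGO range in that of *Obox7*.

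Between growing stages the order was less firm. *Obox1*, *Obox5* and *Obox7* had their highest sum in GO1, but their highest mean over cells in GO2 (217, 715 and 138.6 CPM there, against 178, 679 and 102.3 in GO1). GO1 and GO2 are thus neighbours that did not differ beyond the spread over cells for these 3 genes, and for *Obox2* the cells of GO1 and GO2 overlapped as well. GO3 was above FGO for all 4 genes, in the sums and under each of the 7 alternatives, with overlapping cells. GO3 was below GO1 in the sums, but not for *Obox7* in the means over cells (103.9 against 102.3 CPM) or for *Obox2* with 26 cells per stage (540.02 against 529.5 CPM).

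The step from NGO to GO1, the onset of growth, was the largest of the 4 for the summed rows, which later changed by 1.11-fold up, 1.47-fold down and 1.39-fold down. Changes are counted from 2-fold upwards, for genes with 10 CPM or more in the higher of both stages. By this rule 3 of the 5 members were higher in GO1 and none lower, against 20.6% of the 8527 genes with 10 CPM in either stage that were higher and 25.7% that were lower. *Obox2* rose 25-fold (95% counting interval 22.98 to 27.2), *Obox1* 23.2-fold (20.4 to 26.4) and *Obox5* 9.40-fold (8.97 to 9.86). Of the 8527 genes, 83 rose more than *Obox2*, 89 more than *Obox1* and 250 more than *Obox5*. The extra row *Obox7* rose 31.1-fold (25.8 to 37.8), and 63 genes rose more. The sum of all 6 rows rose 14.6-fold. The median log2 change of all 8527 genes was -0.15.

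The highest NGO cell lay below the lowest GO1 cell for *Obox1* (43.3 against 44.9 CPM), *Obox2* (106.9 against 178 CPM) and *Obox5* (176 against 199.5 CPM). Only 30 of the 8527 genes, 0.352%, were higher in GO1 in this way, and the 3 members are among them. For *Obox1* the gap was narrow, and the lowest GO1 value was 1 UMI in a cell of 22279 UMIs. Thinned to 20000 UMIs, *Obox1* was seen in 48 of 51 GO1 cells and 7 of 46 NGO cells, so at equal depth its cells overlapped.

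The size of the rise depended on how cells were weighted, and its direction did not. Over summed UMIs and 7 other settings, *Obox1* rose 22.3-fold to 44.5-fold, *Obox2* 20.5-fold to 75.7-fold, *Obox5* 9.40-fold to 18.04-fold and *Obox7* 22.5-fold to 143.6-fold. The highest values came from medians over cells, which for *Obox7* divide by an NGO median of 0.734 CPM. This median lies midway between 23 of 46 NGO cells at 0 and the lowest other cell, at 1.47 CPM from 1 UMI. The *Obox7* ratio of medians thus rests on a level below that of any NGO cell with a UMI. Without the 10 deepest cells of each stage, the log2 change of *Obox2* was 6.21 against 4.64 in the sums, with NGO at 10.8 and GO1 at 796 CPM in that setting. *Obox5* had the smallest rise of the 4 genes in all 8 settings.

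**Figure D2:**
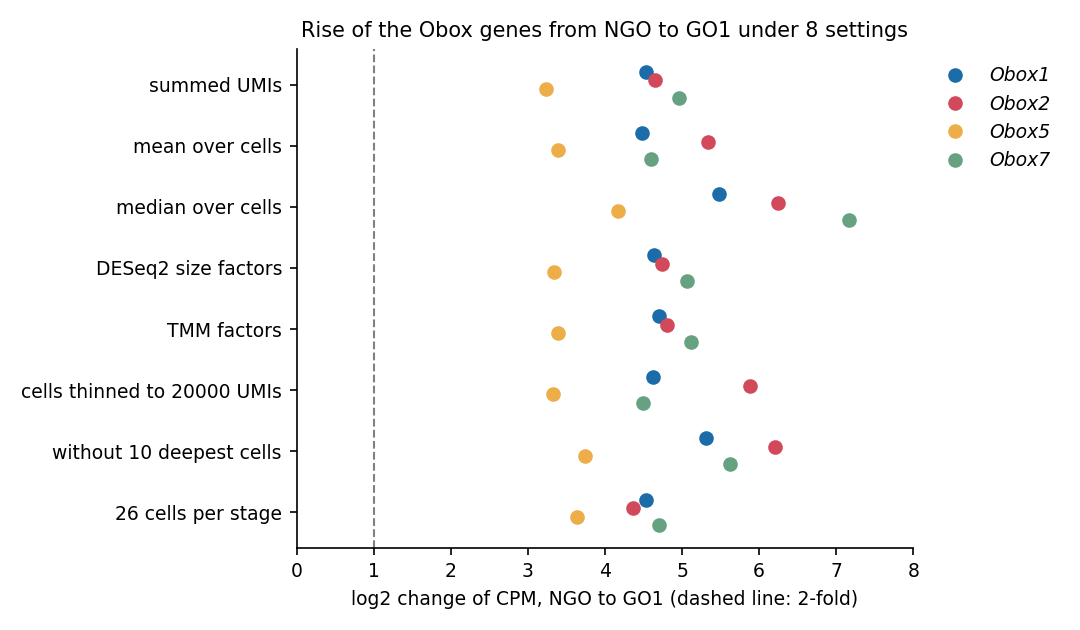
Log2 change of CPM from NGO to GO1 (x axis) for *Obox1*, *Obox2*, *Obox5* and *Obox7* under 8 ways of averaging or scaling the cells (rows). Every point lies right of the dashed 2-fold line, and *Obox5* is the lowest in each row, at 3.23 in the summed UMIs and 4.17 in the medians over cells.

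The make-up of the family changed with the same step. In NGO, *Obox5* held 67.3% of all *Obox* UMIs, *Obox2* 19.9%, *Obox1* 8.81% and *Obox7* 4.04%. In GO1 the shares were 43.3%, 34.03%, 13.99% and 8.60%, and in FGO 34.6%, 43.5%, 14.6% and 7.29%. Cell by cell, among those with at least 20 *Obox* UMIs, *Obox5* was the most abundant in 21 of 23 NGO cells and *Obox2* in the other 2. In GO1 *Obox2* led in 31 of 50 cells and *Obox5* in 18, with 1 tie. *Obox2* led in 21 of 26 GO2 cells, 35 of 44 GO3 cells and 45 of 56 FGO cells, and *Obox5* in the remaining cells. In the GO1 sum, which the 10 deepest cells dominate, *Obox5* led *Obox2* by 715 to 562 CPM, and without those cells *Obox2* led by 796 to 662. In GO3 *Obox2* led by 505 to 476 CPM in the sums and by 576 to 443 without the 10 deepest cells. In FGO it led by 391 to 310 and by 409 to 262. The deepest single cell had *Obox5* at 503 and *Obox2* at 243 CPM in GO3, and at 280 and 195 in FGO. In that of GO2 *Obox2* led by 844 to 491. The leads thus varied with depth within a stage, and the part of depth or library in them was not tested.

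**Figure D3:**
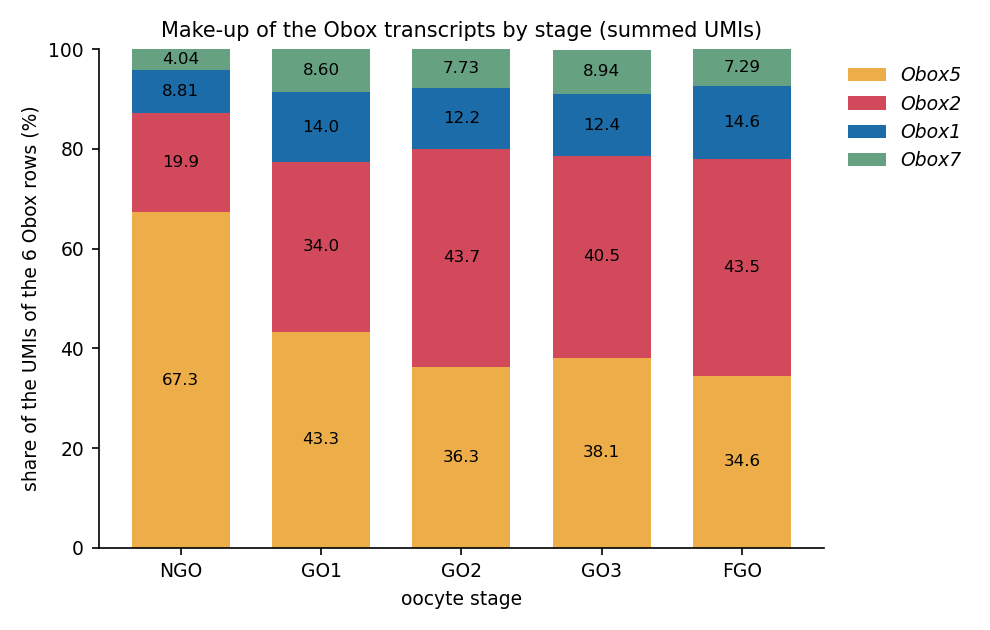
Share of the summed UMIs of the 6 *Obox* rows (y axis, percent) that each of *Obox5*, *Obox2*, *Obox1* and *Obox7* held in each stage (x axis). The *Obox5* segment shrinks from 67.3% in NGO to 34.6% in FGO while that of *Obox2* grows from 19.9% to 43.5%, and *Obox3* and *Obox6* are too small to be drawn.

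Per kilobase of the longest annotated transcript, the order of these 4 genes within each stage was the same as in CPM. A UMI counts a cDNA molecule once whatever its length, so CPM is the measure of level here. The values per kb serve only to check the order. In NGO *Obox5* had 41.5 CPM per kb, *Obox2* 15.4, *Obox1* 6.80 and *Obox7* 3.61. In GO1 the division brought *Obox5* and *Obox2* from 715 and 562 CPM to 390.6 and 385 CPM per kb. *Obox1* was at 157.7 and *Obox7* at 112.3 CPM per kb. In FGO *Obox2* had 268 CPM per kb, *Obox5* 170, *Obox1* 89.5 and *Obox7* 51.9.

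Non-growing oocytes were not uniform. At least 1 UMI was found in 42 of 46 NGO cells for *Obox5*, 33 for *Obox2*, 28 for *Obox1* and 23 for *Obox7*. With each cell thinned to 20000 UMIs, *Obox5* was seen in 27 of 46 NGO cells (58.7%, exact 95% binomial interval 43.2 to 73%), against 51 of 51 GO1 cells at the same depth. No other cell type in the table gives a background for these shares. In 3 NGO cells no UMI of any of the 6 rows was counted, although they held 445902, 459514 and 640120 UMIs, near the NGO median of 540432. *Sohlh1*, a transcription factor of primordial follicle oocytes, was at 502, 616 and 491 CPM in these 3 cells, all above its NGO median of 387. Over all 46 NGO cells the Spearman correlation between the family and *Sohlh1* was -0.46 in CPM and -0.32 in thinned cells, a description over cells that share libraries and a denominator. *Sohlh1* is 1 of 10 oocyte transcription factors listed. *Sohlh2* stood at -0.46 in CPM and -0.22 in thinned cells and *Figla* at -0.30 and -0.41, and the other 7 ran from -0.19 to 0.26 in CPM.

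Within a stage, the cells were compared for how *Obox1*, *Obox2*, *Obox5* and *Obox7* vary together. Spearman correlations of CPM between pairs of these rows ran from 0.06 to 0.65 over the 46 NGO cells, with *Obox1* and *Obox2* the highest pair, and from -0.05 to 0.39 over the GO1 cells. They ran from 0.27 to 0.64 over the 26 GO2 cells, with *Obox5* and *Obox7* the highest, and from -0.08 to 0.57 over the GO3 cells, with *Obox1* and *Obox5* the highest. Over the 56 FGO cells the range was 0.39 to 0.72, again with *Obox5* and *Obox7* the highest. In cells thinned to 20000 UMIs the range was -0.28 to 0.42 over the 5 stages. Thinned and unthinned values were close for some pairs, such as *Obox2* and *Obox5* in GO1 (0.39 in both) and *Obox1* and *Obox2* in FGO (0.42 against 0.39), and far apart for others, such as *Obox1* and *Obox2* in NGO (-0.02 against 0.65). The family CPM had a Spearman correlation of 0.52 with the UMIs of a cell in FGO, 0.27 in NGO and 0.20 in GO1, against -0.09 in GO2 and -0.03 in GO3. The part of depth in the values for pairs was not tested.

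After GO2 the family declined. In each of the 3 later steps, 0 of the 5 members passed the 2-fold rule in the sums. Of all genes tested, 3.14% of 7356 passed it between GO1 and GO2, 4.35% of 7334 between GO2 and GO3, and 5.96% of 7622 between GO3 and FGO. From GO1 to GO2 *Obox2* was 1.42-fold higher (1.39 to 1.45), and *Obox1*, *Obox5* and *Obox7* were within 1.08-fold. From GO2 to GO3 *Obox2* was 1.58-fold lower (1.55 to 1.61), *Obox1* 1.44-fold (1.39 to 1.49), *Obox5* 1.39-fold (1.37 to 1.42) and *Obox7* 1.27-fold (1.22 to 1.32). From GO3 to FGO *Obox7* was 1.70-fold lower (1.64 to 1.77), *Obox5* 1.53-fold (1.503 to 1.56), *Obox2* 1.29-fold (1.27 to 1.31) and *Obox1* 1.18-fold (1.15 to 1.22). The extra row *Obox7* passed the rule here under 3 of 7 alternatives (means, medians and thinned cells), with 1.78-fold to 2.29-fold over all 7.

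Added up from GO2 to FGO, a comparison made after the values were seen, *Obox7* was 2.16-fold lower, *Obox5* 2.14-fold, *Obox2* 2.05-fold and *Obox1* 1.71-fold. The first 3 of these passed the rule for a fall, as did 5.65% of the 7660 genes tested. *Obox5* and *Obox7* also passed under all 7 alternatives, whereas *Obox2* did not with 26 cells per stage (1.72-fold) and *Obox1* did with means over cells (2.02-fold). The cells of GO2 and FGO overlapped for each of the 4 genes.

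From NGO to FGO, 3 of the 5 members passed the rule as higher at the end of growth, against 11.3% of 8132 genes that were higher. *Obox2* was 17.4-fold higher (16.01 to 18.9), *Obox1* 13.2-fold (11.6 to 14.98), *Obox5* 4.08-fold (3.89 to 4.28) and *Obox7* 14.4-fold (11.9 to 17.4). Under the 7 other ways of averaging or scaling, *Obox2* was 18.07-fold to 38.5-fold higher and *Obox1* 13.4-fold to 27.1-fold. *Obox5* was 3.74-fold to 7.14-fold higher there and *Obox7* 10.3-fold to 60.9-fold, with the highest values from medians over cells. In the sums, only 12 of the 8132 genes had a larger ratio than *Obox2*, 20 than *Obox7*, 31 than *Obox1* and 210 than *Obox5*. The cells of the end points overlapped slightly for *Obox2*, with 1 FGO cell at or below the highest NGO cell, and for *Obox1* with 4. For *Obox5*, 15 of 56 FGO cells lay within the NGO range, and for *Obox7* 19.

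*Obox3* and *Obox6*, the member of the embryo and the distant member, stayed under 1 CPM in all 5 stages. *Obox3* had 1, 4, 8, 20 and 22 UMIs from NGO to FGO, or 0.0397, 0.150, 0.320, 0.401 and 0.342 CPM, in 1, 1, 5, 11 and 8 cells. Its 95% Poisson intervals overlapped between neighbouring stages, but not between NGO (up to 0.221 CPM) and GO3 (from 0.245 CPM). From NGO to FGO *Obox3* was 8.62-fold higher, with a counting interval of 1.39 to 356. With *Obox1* lying inside the annotated gene on the other strand, these few UMIs remain uncertain. *Obox6* had 0, 11, 12, 18 and 0 UMIs, or 0, 0.411, 0.480, 0.361 and 0 CPM, in 3 GO1, 6 GO2 and 9 GO3 cells. It shared no 50-base stretch with the protein-coding transcripts of the other *Obox* genes, and pseudogenes were not compared. The 0 in FGO stands at the greatest depth of the 5 stages, where 3 UMIs, the limit that a count of 0 allows, correspond to 0.0466 CPM. Against that limit *Obox6* was at least 7.75-fold lower in FGO than in GO3, and against the limit in NGO it was at least 3.45-fold higher in GO1. These limits take the UMIs of the other stage as counted, and with the counting error of both counts the 95% bounds were 5.68-fold and 2.36-fold. No single cell held more than 6 of these UMIs.

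**Figure D4:**
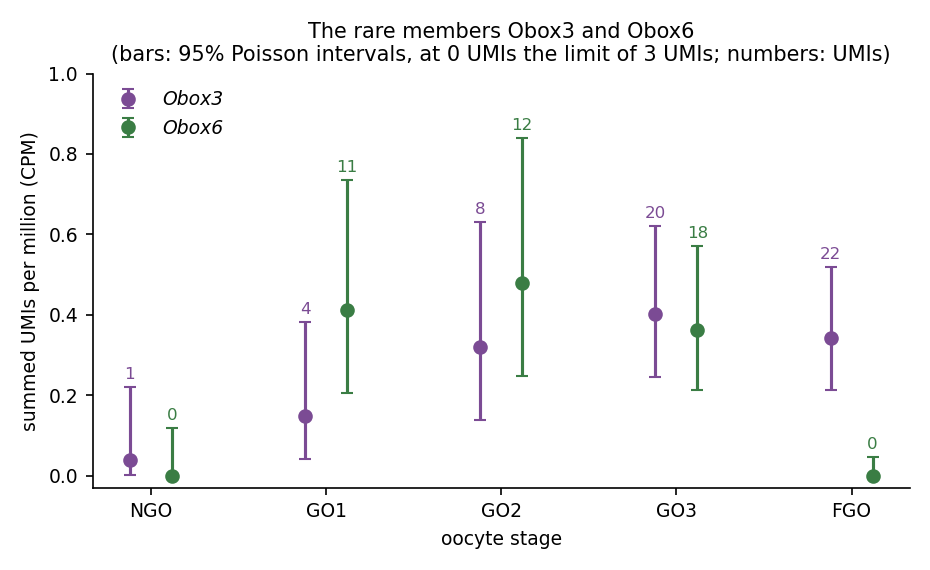
Summed UMIs in CPM (y axis) of *Obox3* and *Obox6* in each stage (x axis), with 95% Poisson intervals as bars, the limit of 3 UMIs where the count is 0, and the UMIs as numbers. *Obox6* has UMIs in GO1, GO2 and GO3 and none in NGO and FGO, and the highest level is 0.480 CPM.

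Other homeobox genes were listed for comparison. Of 33, 32 were in the table and 14 had 10 CPM in NGO or GO1, of which 2 were higher in GO1, 5 lower and 7 past neither limit, with a median log2 change of -0.43. With so few genes these counts lie near the 20.6% higher and 25.7% lower of all 8527 genes, and nothing particular to homeobox genes is read from them. *Meis2*, a TALE homeobox gene, rose 6.83-fold from 194 to 1324 CPM, and *Satb1*, a chromatin organizer, 5.85-fold from 19.2 to 112.2 CPM. *Tgif1*, a repressor of TGF-beta signalling, was 9.21-fold lower in GO1, *Pknox1*, a partner of PBX proteins, 5.46-fold and the pluripotency gene *Pou5f1* 3.92-fold. The 4 abundant *Obox* rows had larger rises than any of the 14 in the summed UMIs.

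Oocyte transcription factors act on follicle formation and early growth. Of 10 listed, 8 were tested, none was higher in GO1 and 6 were lower, beside 20.6% and 25.7% of all genes, with a median log2 change of -2.70. This list too was chosen with earlier results of these data known, so no excess over all genes is read from it. *Sohlh1* was 1111-fold lower (585 to 2430), from 374 to 0.336 CPM, the TBP-related *Tbpl2* 12.2-fold and *Sohlh2* 10.2-fold.

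**Figure D5:**
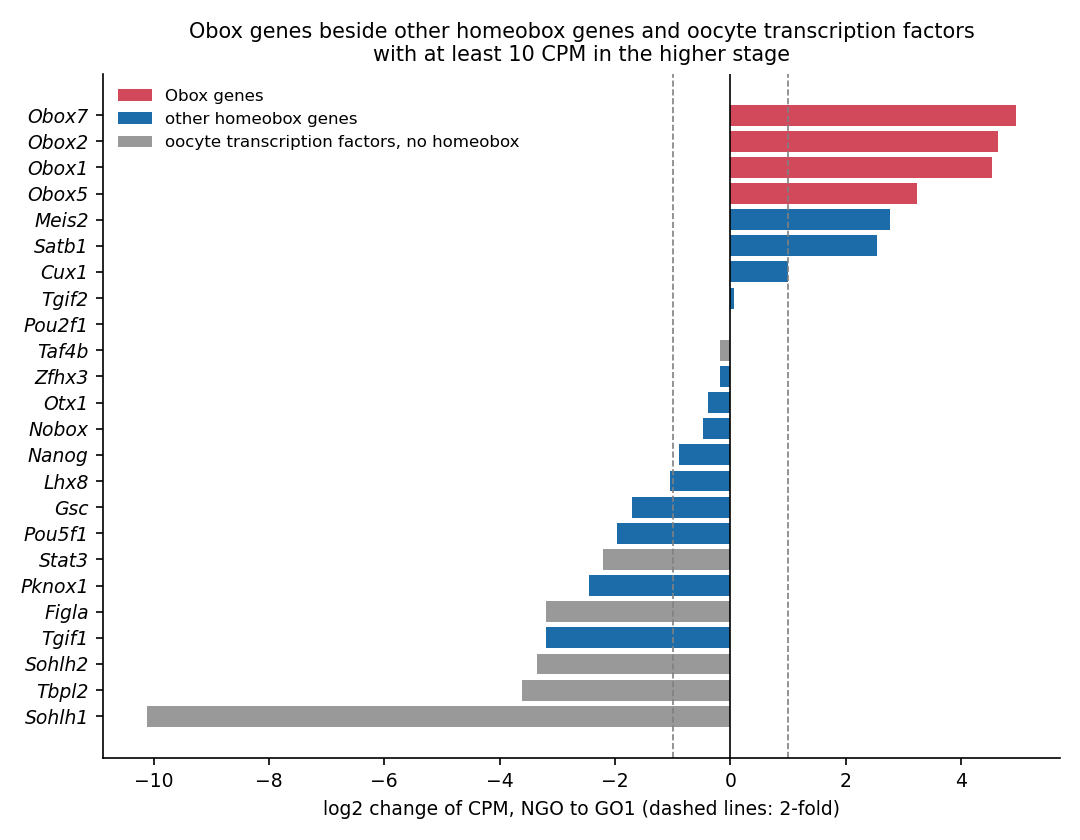
Log2 change of CPM from NGO to GO1 (x axis) for the 4 abundant *Obox* rows, the 14 other homeobox genes tested and the oocyte transcription factors tested that have no homeobox. The *Obox* genes take the first 4 places, from 4.96 for *Obox7* to 3.23 for *Obox5*, followed by *Meis2* at 2.77, and *Sohlh1* is the lowest at -10.12.

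Of 15 other genes listed for the time when the embryonic genome is switched on, 13 were tested. In GO1 7 of them were higher and 1 was lower, with a median log2 change of 1.07. Over all genes tested, 20.6% were higher and 25.7% lower, with a median of -0.15. The list was chosen with earlier results of these data known, so no excess over all genes is read from these counts. *Yap1*, a co-activator of TEAD factors, rose 5.47-fold, the NF-Y subunit *Nfya* 5.05-fold and *Dppa2*, which encodes a chromatin protein of the early embryo, 3.37-fold, while the chromatin remodeller *Smarca4* was 2.02-fold lower. Of 12 genes typical of the 2-cell embryo, 10 were in the table, and 1 of them, the translation factor *Eif4e3*, was tested and rose 3.99-fold.

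The genes whose 5-stage profile was most like that of an *Obox* gene were sought among the 8671 genes that reached 10 CPM in 1 stage or more. Likeness was taken as the root mean square difference between profiles in log2(CPM + 1), each profile centred on its own mean. For *Obox1* they were *Nlrp9c* (0.19), *Pid1* (0.19), *Obox7* (0.20), *Clvs2* (0.21) and *Gm6367* (0.22). For *Obox2* they were *Obox7* (0.23), *Ccdc105* (0.24), *Slc12a8* (0.25), *Gm16497* (0.25) and *Obox1* (0.27). For *Obox5* they were *Mllt10* (0.11), *Hpf1* (0.15), *Hist1h2bk* (0.15), *Chac2* (0.15) and *Gm5134* (0.16), and no other *Obox* gene was among the nearest. *Obox7* stood closest to the solute carrier *Slc12a8* (0.05), followed by *AA792892* (0.08), *Ccdc105* (0.13), *Gm16497* (0.14) and *Gm813* (0.15). By Pearson correlation over the same 5 stages, none of these 5 genes remained among the nearest 5 for *Obox1*, *Obox2* or *Obox5*, and 1 did for *Obox7*, so the names depend on the measure.

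The cells were oocytes by their markers. All 10 oocyte markers, among them *Zp3* and *Gdf9*, had over 10 CPM in every stage, with summed levels from 14616 to 26673 CPM. The 10 granulosa cell markers together had 9.41, 29.8, 28.1, 23.6 and 13.1 CPM from NGO to FGO, with *Cyp19a1* the most abundant in GO1 at 16.3 CPM and *Amh* at 0.112 CPM there. The sum of this list was higher in GO1 than in NGO, as were the abundant *Obox* genes. *Cyp19a1*, the only marker of the list at 10 CPM or more, went from 1.11 to 16.3 CPM. *Fshr*, *Inhba*, *Wt1* and *Foxl2* were lower in GO1 and the others higher, all under 10 CPM. The 7 stroma and theca markers, none at 10 CPM, together had 8.06 CPM in NGO and 0.486 in GO1, led by *Dcn*. The 6 blood markers were at 0.161 CPM or less in each stage, with all 4 globin genes at 0. Of 3 endothelial markers, *Pecam1* had 4.60 CPM in NGO and 37.6 in GO1, while *Cdh5* was at 0 in both and *Kdr* at 0 and 1.27 CPM. The part of these lists in the *Obox* values was not tested.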

How the data were processed

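Single-cell RNA-seq libraries of 4 batches of oocytes carried cell barcodes and UMIs. The deposited values are raw UMI counts with no normalization, in which the authors kept cells by genes, transcripts and spike-in share. Alignment was with Tophat against mm9 transcripts, and each UMI counts once. How reads shared by paralogs were counted is not given in the sources used here. UMIs per cell had medians of 540432 (NGO), 110146 (GO1), 676786 (GO2), 972294 (GO3) and 792312 (FGO). No doublet caller was run, since oocytes were picked by hand. The iscCOOL-seq data and barcode lists were not used here.

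UMIs were summed per stage and expressed as CPM. A change needed 2-fold and 10 CPM in the higher stage. Named genes are the *Obox* rows, the 5 nearest profiles of each, and, from each list, up to 3 genes past the rule in each direction from NGO to GO1. Outside this rule stand the cell type markers, *Figla* and the genes under Other observations. The members and lists were chosen with earlier results of these data known. Intervals are exact Poisson and binomial at 95%, and a 0 was given the limit of 3 UMIs over the stage. Alternatives were mean or median CPM over cells, DESeq2 1.42.0 and edgeR 4.0.16 factors (for scaling only), thinning to 20000 UMIs, leaving out the 10 deepest cells, 26 cells per stage, a 1.5-fold limit, and 50 CPM or no minimum. Gene positions and transcripts are from GENCODE vM1 (NCBIM37), promoter windows from RefSeq (GRCm38.p6). Python 3.11.15 and R 4.3.3 were used.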

Additional observations from a re-analysis of the deposited data

How the results depend on the processing

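All 3 rises, NGO to GO1 as well as NGO to FGO, were counted under all settings that change averaging, scaling, depth or the number of cells. With no minimum CPM, which admits *Obox3* and *Obox6*, 5 members passed at the onset of growth, 1 between GO1 and GO2, 1 between GO3 and FGO and 4 between NGO and FGO. With a 1.5-fold limit 1 member passed in each of the last 2 steps: *Obox2* on the way to GO3 and *Obox5* on the way to FGO. The direction from GO1 to GO2 was not stable for *Obox1*, whose log2 change ran from -0.05 to 0.29 (-0.05 in the sums), *Obox5*, from -0.22 to 0.13 (-0.11 in the sums), and *Obox7*, from 0.02 to 0.44 (-0.0049 in the sums). From NGO to GO1 the median log2 change of all genes shifted by 0.10 with DESeq2 factors, 0.16 with TMM factors, -0.19 with means and -0.33 with medians over cells, all far below the changes of the 4 abundant genes. No paired analysis was possible because the columns of the count table carry no library or replicate number and each stage was 1 pooled sample without a test. Depth limits *Obox3* and *Obox6*, with at most 22 UMIs in a stage.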

Other observations

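*Zscan4d*, a gene of the 2-cell embryo that stayed under the 10 CPM minimum and was picked after its values were seen, had 0 UMIs in NGO and 64, 41, 120 and 78 UMIs in GO1, GO2, GO3 and FGO, or 2.39, 1.64, 2.41 and 1.21 CPM. *Zscan4c* had 1, 32, 23, 50 and 39 UMIs from NGO to FGO. Both belong to a family of near-identical copies, so their counts are uncertain as single genes. The homeobox genes *Otx2* and *Duxbl1* had 0 UMIs in all 5 stages.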
